A study of Mus musculus with 10 samples.

Results

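The Zfp genes of the mouse are the zinc finger protein genes that carry a number in place of a name. The 45 examined here were chosen by 3 properties of the deposited gene table: a symbol made of Zfp and a number, the transcript type protein_coding alone, and a mean of at least 2 FPKM (reads scaled to transcript length and library size) over all 10 libraries. They are 45 of the 55359 genes in the table, which lists 380 genes named in this way. Of those 380, 145 have protein_coding as their only transcript type, and a further 98 reach the same level but have several transcript types. The level that chose them is the mean over both groups, but near the threshold it can favour a group. *Zfp994* (1.76 FPKM in the control libraries and 2.29 FPKM after *Fndc1* knockdown) reached it only through the knockdown libraries. The same holds for *Zfp65* (1.88 and 2.17 FPKM). Their place among the 45 is not independent of this difference. Just inside the threshold were *Zfp994* and *Zfp65* at 2.02 FPKM and *Zfp933* at 2.38 FPKM, and just outside it were *Zfp970* at 1.97, *Zfp462* at 1.92 and *Zfp626* at 1.902 FPKM.

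The cells were C2C12, a mouse myoblast line that leaves the cell cycle and fuses into myotubes when serum is reduced. They were grown with 20% fetal bovine serum by the sample records, where the paper's methods give a lower share. They received 100 nM of an siRNA, either directed at *Fndc1* (5 libraries, si-*Fndc1*) or a control (5 libraries, si-Control). They were then kept for 4 days, by the paper's methods, in differentiation medium with 2% horse serum. The descriptions of the data do not all name the same time point. The study used the pair to ask what loss of FNDC1, a secreted protein, does to myoblast differentiation. The methods name 1 siRNA sequence against *Fndc1*, and all libraries came from 1 cell line. Nothing in the labels says that the replicates were separate cultures, so the p-values measure the spread between these libraries, which may be technical.

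A C2H2 zinc finger is a short loop in which a pair of cysteines and a pair of histidines hold a zinc ion, so that the loop can read a few bases of DNA. Most Zfp proteins carry many such fingers in a row, joined by a conserved linker. Many also carry a KRAB box, which recruits TRIM28 (KAP1) and through it the histone methyltransferase SETDB1, and the KRAB zinc finger proteins are best known for silencing transposons in this way. Their genes lie in clusters that arose by duplication. Other Zfp genes have no KRAB box and act as activators, repressors or RNA-binding proteins. In muscle cells, TRIM28 is also known as a partner of the myogenic factor MYOD.

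To show what these genes look like, the coding sequence of 1 finger and its linker is printed for 3 Zfp genes that were higher and 3 that were lower in si-*Fndc1*. They had the largest differences among the genes considered for printing that passed the test and hold a finger of the form C-2-C-12-H-3-H followed by the linker, and they were picked after those values had been seen. The sequences were read from GENCODE M1 transcripts (genome build NCBIM37, plus strand), 5′ to 3′, and the capitals mark the linker that joins a finger to the following one. Each lies within 1 coding exon. The first 3 belong to genes that were higher and have a KRAB pattern, and the others to genes that were lower and have none.
Zfp758, chr17:22512384-22512461: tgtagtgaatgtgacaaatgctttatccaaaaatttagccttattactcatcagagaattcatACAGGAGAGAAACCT
Zfp51, chr17:21600818-21600895: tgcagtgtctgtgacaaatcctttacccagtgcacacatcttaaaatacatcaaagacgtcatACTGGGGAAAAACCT
Zfp958, chr8:4628541-4628618: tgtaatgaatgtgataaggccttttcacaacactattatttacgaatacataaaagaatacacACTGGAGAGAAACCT
Zfp526, chr7:26010771-26010848: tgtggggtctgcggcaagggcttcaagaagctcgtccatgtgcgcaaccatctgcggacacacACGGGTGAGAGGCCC
Zfp628, chr7:4870488-4870565: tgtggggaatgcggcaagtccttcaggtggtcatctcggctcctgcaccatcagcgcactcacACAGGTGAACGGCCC
Zfp358, chr8:3496221-3496298: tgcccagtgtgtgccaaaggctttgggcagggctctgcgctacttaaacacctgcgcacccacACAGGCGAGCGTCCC
The 6 stretches encode the same kind of structure in different letters. The fingers of *Zfp758*, *Zfp51* and *Zfp958* had a GC content of 33.3%, 41.0% and 32.1%, whereas those of *Zfp526*, *Zfp628* and *Zfp358* had 62.8%, 61.5% and 62.8%. The linkers differed in the same way, with 46.7% GC in each of the first 3 genes and 66.7% to 73.3% in the others.

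Counts per library ranged from 66771605 to 75995168 among the si-Control libraries and from 56332844 to 72839369 among the others, the lowest being si-*Fndc1* replicate 5. *Fndc1* itself measured 27.8 ± 2.04 FPKM in si-Control and 20.9 ± 1.70 FPKM in si-*Fndc1* (mean ± SD, n = 5 libraries each), and this fall passed the test (log2 fold change -0.40, edgeR adjusted p = 0.00093, and -0.23, adjusted p = 0.00788, with the offset for GC content and transcript length described with the Zfp counts). Of 16 markers of muscle differentiation, 4 rose and 2 fell, and their summed level overlapped between the groups (5561 to 6176 FPKM in si-Control and 5398 to 6211 FPKM in si-*Fndc1*). Of 12 proliferation genes, 2 rose and 0 fell. Of 20 liver transcripts, 16 were high enough to test and all 16 rose. The summed level of the 20 was 0.210 to 7.21 FPKM in the si-Control libraries and 56.9 to 199.9 FPKM in the si-*Fndc1* libraries, and each of the 20 had a count in at least 1 library. Labelled myoblast cells should lack liver transcripts, and the part of this RNA in the Zfp differences was not tested. In bulk libraries, fewer cells of a type and less RNA per cell cannot be told apart.

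The Zfp genes were present at low levels. Their mean was 2.02 to 12.99 FPKM with a median of 3.65, and their counts were 207 to 6985 per library. The coefficient of variation between the libraries of a group had a median of 8.15% in si-Control and 9.23% in si-*Fndc1*, with a highest value of 35.4% and 30.7%. They lay on 16 chromosomes, with 9 on chromosome 17, 9 on chromosome 7 and 6 on chromosome 8.

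After *Fndc1* knockdown, 13 of the 45 Zfp genes rose and 6 fell at an edgeR adjusted p under 0.05, and 26 did not pass. The risers were *Zfp758*, *Zfp51*, *Zfp958*, *Zfp960*, *Zfp944*, *Zfp994*, *Zfp53*, *Zfp655*, *Zfp35*, *Zfp617*, *Zfp654*, *Zfp52* and *Zfp24*, and the genes that fell were *Zfp469*, *Zfp526*, *Zfp628*, *Zfp516*, *Zfp358* and *Zfp319*. Of the risers, *Zfp994* met the level of the rule only through si-*Fndc1*. The differences were small: 4 genes had a log2 fold change of at least 0.5 in size and 0 reached 1. Beside these counts, 34.4% of the 13548 genes tested were called, 17.3% higher and 17.2% lower. Among the 9081 tested protein-coding genes at 2 FPKM or more, 41.7% were called, 19.6% higher and 22% lower. The total share of Zfp genes called, 42.2%, was close to that of protein-coding genes at the same level and is not a result about the Zfp genes. The split differed, with 28.9% of the Zfp genes called higher and 13.3% lower, but it turned when an offset for GC content and transcript length was fitted in each library: of the 42 genes with a known GC content, 2 were then called higher and 5 lower.

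**Figure D1:**
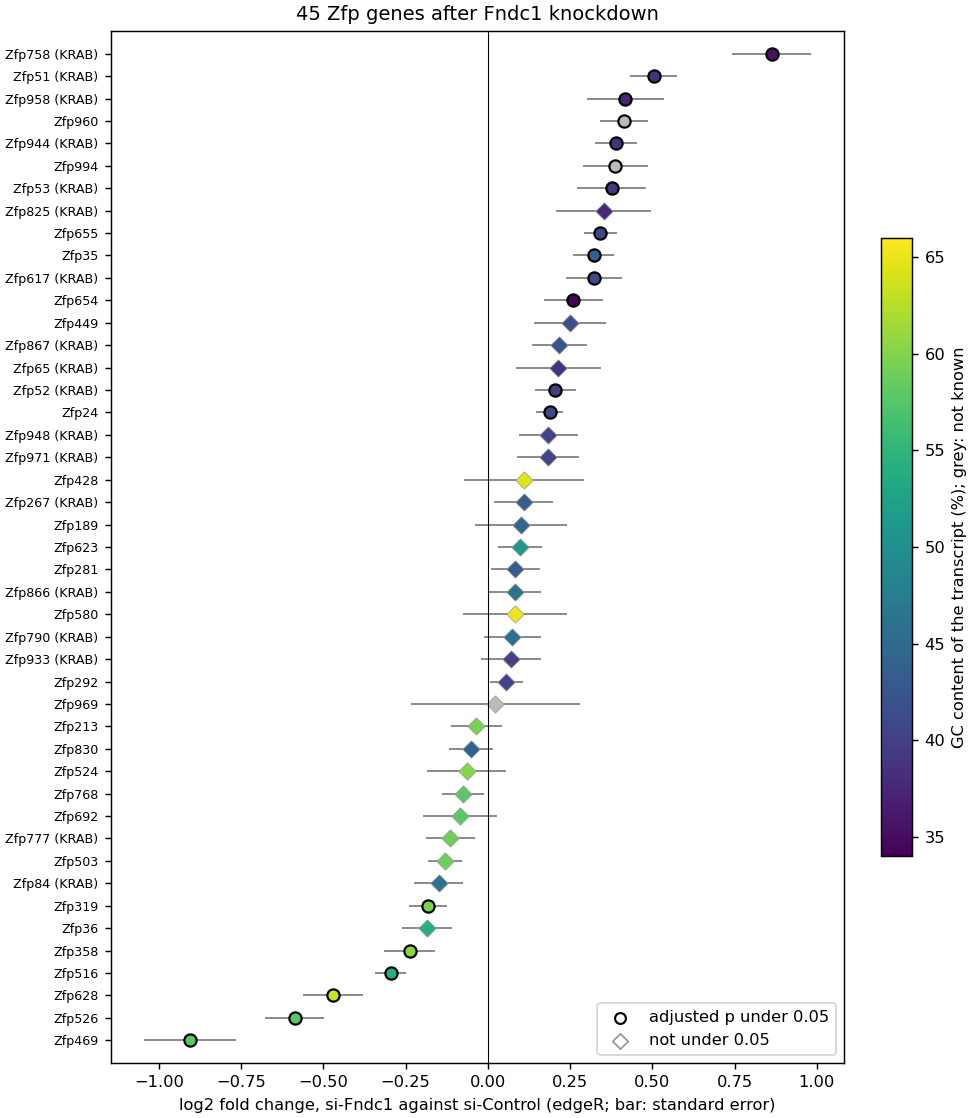
Each point is 1 of the 45 Zfp genes, placed by its log2 fold change of si-*Fndc1* against si-Control on the horizontal axis, with its standard error as a bar and the GC content of its transcript as colour. Circles mark the 13 genes called higher and the 6 called lower, and most of the dark, GC-poor genes sit at the upper right while most of the GC-rich genes sit at the lower left.

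Before the test, 30 of the 45 log2 fold changes were positive and 15 negative. Their median was 0.098, against 0.0043 over all genes tested, and it was -0.012 with the GC and length offset. The median size of the log2 fold change was 0.18, close to the 0.17 of all genes tested. At an unadjusted p under 0.05, 16 Zfp genes were higher and 8 lower. The share of all genes tested that passed this unadjusted threshold is not given here, so these counts are not a result about the Zfp genes. The CPM (counts scaled to library size) of 10 Zfp genes were higher in every si-*Fndc1* library than in every si-Control library, and those of 4 were lower in every one. These are 22.2% and 8.89% of the Zfp genes, beside 12.8% and 12.3% of all genes tested.

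A KRAB pattern was found in the longest protein of 18 Zfp genes, which held 6 to 20 fingers with a median of 12. The pattern is strict and can miss a KRAB box, so KRAB genes here means genes that match it. Of these 18, 7 rose and 0 fell, and 16 had a positive log2 fold change with a median of 0.21. The 38.9% that rose stands beside 19.6% of protein-coding genes at 2 FPKM or more and beside 41.1% of all tested genes in the lowest bin of GC content, so it is not a result about KRAB genes, and no difference between protein classes was tested. The offset for GC content and length removed most of this, leaving 1 called higher, 1 called lower and a median of -0.012.

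*Zfp758* (ENSMUSG00000044501) showed the largest rise. It was measured at 2.26, 3.30, 2.23, 2.29 and 2.29 FPKM in si-Control replicates 1 to 5 and at 4.41, 3.82, 4.68, 4.61 and 4.90 FPKM in si-*Fndc1* replicates 1 to 5. All 5 si-*Fndc1* libraries lay above all 5 si-Control libraries, and si-Control replicate 2 stood apart from the other 4 of its group. The mean was 1.81-fold higher, from 2.47 ± 0.463 FPKM in si-Control and 4.48 ± 0.412 FPKM in si-*Fndc1* (mean ± SD, n = 5 libraries each). The rise passed the test (log2 fold change 0.86, SE 0.12, edgeR adjusted p = 0.000335), and it did so with the GC and length offset too, at 0.49 (adjusted p = 0.00452). It was called in 18 of 18 alternative settings, with a log2 fold change of 0.49 to 0.99.

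*Zfp51* (ENSMUSG00000023892), whose protein had 20 fingers, the most among the 42 with a protein, was measured at 3.22, 3.34, 3.14, 2.95 and 3.38 FPKM in si-Control replicates 1 to 5 and at 4.46, 4.16, 4.17, 4.91 and 4.96 FPKM in si-*Fndc1* replicates 1 to 5. The groups did not overlap, and the mean was 1.41-fold higher (log2 fold change 0.50, SE 0.072, edgeR adjusted p = 0.000400). With the GC and length offset its log2 fold change was 0.16 (adjusted p = 0.0931), so the call was lost. *Zfp944* was measured at 3.12, 2.9995, 2.99, 3.25 and 3.11 FPKM in si-Control replicates 1 to 5 and at 3.99, 4.40, 3.60, 3.97 and 4.20 FPKM in si-*Fndc1* replicates 1 to 5, again without overlap. Its mean was 1.30-fold higher (log2 fold change 0.39, SE 0.063, edgeR adjusted p = 0.000890), and the offset took its log2 fold change to 0.061 (adjusted p = 0.610). *Zfp53* was measured at 2.49, 2.05, 2.59, 2.35 and 2.36 FPKM in si-Control replicates 1 to 5 and at 2.64, 2.62, 3.07, 3.36 and 3.62 FPKM in si-*Fndc1* replicates 1 to 5. The lowest si-*Fndc1* library of *Zfp53* was barely above the highest si-Control library, and its rise (log2 fold change 0.38, SE 0.11, edgeR adjusted p = 0.0176) became 0.068 (adjusted p = 0.662) with the offset.

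*Zfp617* was the most abundant KRAB gene among the risers. It was measured at 8.55, 8.25, 7.11, 8.05 and 7.77 FPKM in si-Control replicates 1 to 5 and at 10.8, 8.59, 10.1, 8.67 and 11.3 FPKM in si-*Fndc1* replicates 1 to 5, and the groups did not overlap (log2 fold change 0.32, SE 0.085, edgeR adjusted p = 0.0135). With the offset it was 0.054 (adjusted p = 0.671). *Zfp52* was measured at 7.46, 8.52, 7.65, 6.93 and 7.79 FPKM in si-Control replicates 1 to 5 and at 8.48, 8.23, 9.19, 8.92 and 9.18 FPKM in si-*Fndc1* replicates 1 to 5, and si-Control replicate 2 was above the lowest si-*Fndc1* library. Its rise (log2 fold change 0.21, SE 0.062, edgeR adjusted p = 0.0246) was lost without si-Control replicate 1 or 4 or si-*Fndc1* replicate 3 or 5, where its adjusted p was 0.0505 to 0.0533, and with the offset its log2 fold change was -0.075 (adjusted p = 0.281). *Zfp958* rose as well (log2 fold change 0.42, SE 0.12, edgeR adjusted p = 0.0182), with 2.29 to 3.21 FPKM in si-Control and 3.03 to 4.29 FPKM in si-*Fndc1*, so that the groups overlapped, and the offset took it to 0.034 (adjusted p = 0.834).

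The other 11 KRAB genes did not pass. *Zfp825* had the largest log2 fold change among them at 0.35 (edgeR adjusted p = 0.0816), and the lowest were *Zfp84* at -0.15 and *Zfp777* at -0.11. *Zfp825* passed without si-*Fndc1* replicate 5 (log2 fold change 0.44, adjusted p = 0.0275), and *Zfp867*, at 0.22 with all libraries, passed without si-*Fndc1* replicate 2 (0.27, adjusted p = 0.0238). *Zfp84* was called lower with the offset, at -0.25 (adjusted p = 0.0274). *Zfp777* is also the GC-rich exception of the group, with 58.9% GC where the median of the 18 was 40.3%.

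**Figure D2:**
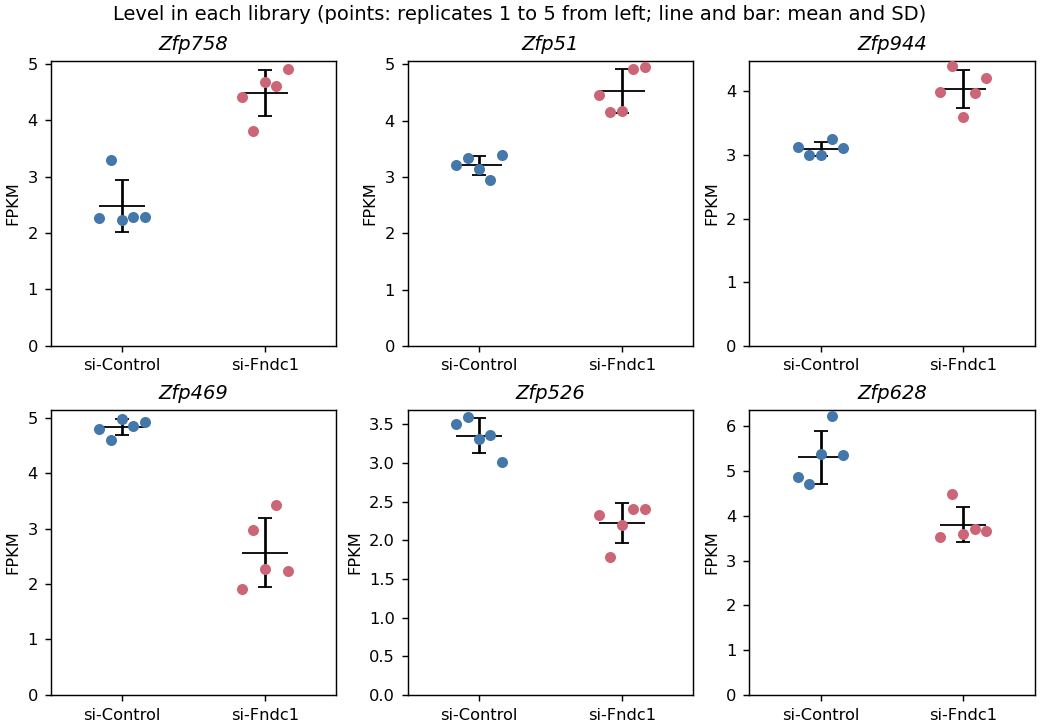
Each panel shows 1 gene, with FPKM from 0 on the vertical axis, 1 point per library (replicates 1 to 5 from left) and the group mean with its SD as a line and bar. In the upper row *Zfp758*, *Zfp51* and *Zfp944* are higher in all 5 si-*Fndc1* libraries, and in the lower row *Zfp469*, *Zfp526* and *Zfp628* are lower in all 5.

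Of the 13 risers, 6 were neighbours on chromosome 17. In the coordinates of the deposited table, whose build it does not name while the processing notes list GRCm39, *Zfp51*, *Zfp53*, *Zfp52*, *Zfp948*, *Zfp994*, *Zfp944* and *Zfp758* lay within chr17:21670636-22596262, a stretch of 926 kb. Of these 7, *Zfp948* alone did not pass (log2 fold change 0.18, SE 0.090, edgeR adjusted p = 0.140), and *Zfp994* was among the 45 only through its si-*Fndc1* level. The stretch listed 15 genes named Zfp and a number, of which 13 could be tested. Of the 13, 9 rose and 0 fell, with a median log2 fold change of 0.38. Beside these counts, 17.3% of all genes tested rose, and 41.1% of those in the lowest bin of GC content. The 6 tested genes of the stretch outside the 45 included *Zfp943* at 0.64 (edgeR adjusted p = 4.62e-05), *Zfp820* at 0.42 (adjusted p = 0.0435) and *Zfp942* at 0.25 (adjusted p = 0.0259), which were singled out after their values were seen. With the GC and length offset the log2 fold change of *Zfp943* was 0.35 (adjusted p = 0.00213), that of *Zfp942* was -0.025 and that of *Zfp820* was 0.095. In the whole stretch, *Zfp758* and *Zfp943* alone were called with the offset. *Zfp52*, *Zfp948*, *Zfp942*, *Zfp995* and *Zfp229* were negative with it, and *Zfp994* has no offset value.

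**Figure D3:**
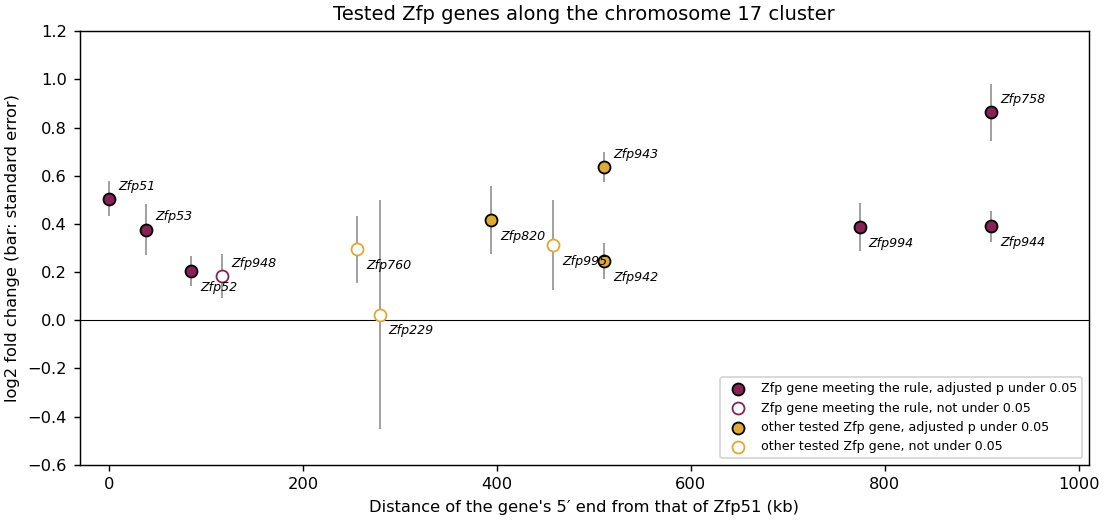
Each point is a tested Zfp gene of the chromosome 17 stretch, with the distance of its 5′ end from that of *Zfp51* in kb on the horizontal axis and its log2 fold change with standard error on the vertical axis. All 13 values, which are without the GC and length offset, lie above 0, from 0.023 for *Zfp229* to 0.86 for *Zfp758*. Filled points mark the 9 that passed the test.

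At the end of this stretch, *Zfp944* (chr17:22556970-22580381, minus strand) and *Zfp758* (chr17:22580434-22596262, plus strand) stood head to head with 52 bases between them. Both rose, and they share promoter sequence, which is why it is printed. The RefSeq promoter of *Zfp758* (build GRCm38.p6, chr17:22361213-22361512, plus strand, 300 bases around the start) is given 5′ to 3′, and the capitals mark the 162 bases that are also in the promoter of *Zfp944*, read there from the minus strand.
Zfp758 promoter: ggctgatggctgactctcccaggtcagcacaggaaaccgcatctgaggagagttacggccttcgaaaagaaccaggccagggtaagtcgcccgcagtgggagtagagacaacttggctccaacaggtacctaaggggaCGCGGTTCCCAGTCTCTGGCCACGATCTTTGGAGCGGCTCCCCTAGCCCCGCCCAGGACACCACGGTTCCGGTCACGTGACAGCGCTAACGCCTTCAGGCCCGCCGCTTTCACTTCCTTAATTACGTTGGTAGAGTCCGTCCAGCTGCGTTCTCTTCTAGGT
This promoter had 59.3% GC and 20 CG dinucleotides, and that of *Zfp944* had 58% GC and 22, where the median of all promoters was 52.7% GC. The transcripts of both genes were GC-poor in contrast, with 35.3% and 38.7%. A script searched the promoters for the E-box letters CACGTG and CAGCTG, each of which reads the same on both strands and does not overlap the other, and both were in the shared stretch. CACGTG was in 7.24% of all 27025 promoters of this length and in 5 of the 34 Zfp genes with a promoter in the table. CAGCTG was in 16.1% of all promoters and in 9 of the 34. Among the risers with a promoter, 3 of 8 held CACGTG and 4 of 8 held CAGCTG, against 0 of 4 and 1 of 4 of the genes that fell. The other carriers were among the 22 genes that did not pass: *Zfp292* and *Zfp933* for CACGTG, and *Zfp213*, *Zfp580*, *Zfp692* and *Zfp948* for CAGCTG. No difference between these groups was tested. *Zfp758* and *Zfp944* both count in each tally through the 1 stretch they share, so these are not separate sites. These matches describe letters and not binding. The promoters of the 8 risers had a median GC content of 57.5%, close to the 56.7% of the 22 Zfp genes that did not pass, and those of the 4 genes that fell had 69%.

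A further 20 Zfp genes had 3 or more fingers and no KRAB pattern. Of these, 4 rose and 6 fell, so all genes that fell were of this kind, and the median log2 fold change was 0.010. The 20% that rose and 30% that fell stand beside 19.6% and 22% of protein-coding genes at 2 FPKM or more. Their GC content ran from 34.4% to 65.0% around a median of 55.6%, so no bin of GC content matches them as a set. The 4 risers had 34.4% to 43.9% GC, and the 6 genes that fell had 53.8% to 63.5%. In the lowest bin of GC content 41.1% of all tested genes rose and 1.70% fell. In the highest bin 3.49% rose and 43.4% fell. The counts are therefore not a result about genes without a KRAB pattern. With the GC and length offset 1 was called higher and 3 lower. The 4 risers were *Zfp655*, *Zfp35*, *Zfp654* and *Zfp24*.

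*Zfp655* encodes Vik, a Krüppel-like protein that binds the signalling protein VAV1. It was measured at 5.39, 5.54, 5.10, 4.81 and 5.15 FPKM in si-Control replicates 1 to 5 and at 6.37, 6.27, 6.42, 6.84 and 6.88 FPKM in si-*Fndc1* replicates 1 to 5, without overlap between the groups. The mean was 1.26-fold higher (log2 fold change 0.34, SE 0.050, edgeR adjusted p = 0.000491), and the call held with the offset, at 0.14 (adjusted p = 0.0390). It was lost when a block for the replicate number was added to the offset (edgeR adjusted p = 0.130). *Zfp35* was measured at 3.33, 3.36, 3.12, 3.30 and 3.16 FPKM in si-Control replicates 1 to 5 and at 4.19, 3.83, 3.87, 3.78 and 4.57 FPKM in si-*Fndc1* replicates 1 to 5, also without overlap (log2 fold change 0.32, SE 0.062, edgeR adjusted p = 0.00250), and the offset took it to 0.12 (adjusted p = 0.183). *Zfp24*, a SCAN-domain factor known from its role in myelination, was measured at 5.73, 5.65, 5.89, 5.73 and 6.25 FPKM in si-Control replicates 1 to 5 and at 6.49, 6.50, 6.59, 6.47 and 7.10 FPKM in si-*Fndc1* replicates 1 to 5. The lowest si-*Fndc1* value of *Zfp24* exceeded the highest si-Control value by little, and the rise (log2 fold change 0.19, SE 0.042, edgeR adjusted p = 0.00524) was -0.0018 (adjusted p = 0.981) with the offset. *Zfp654* passed narrowly (log2 fold change 0.26, SE 0.088, edgeR adjusted p = 0.0419) with overlapping groups, and lost its call in 6 of 10 fits without 1 library, those without si-Control replicate 1, 2, 3 or 4 or si-*Fndc1* replicate 1 or 2 (adjusted p 0.0723 to 0.0887).

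*Zfp469*, whose human counterpart is mutated in brittle cornea syndrome, fell the most. It was measured at 4.80, 4.60, 4.98, 4.86 and 4.93 FPKM in si-Control replicates 1 to 5 and at 1.91, 2.98, 2.27, 3.42 and 2.24 FPKM in si-*Fndc1* replicates 1 to 5. The si-Control libraries lay close together and the si-*Fndc1* libraries were all lower, with a wider spread. The mean was 0.531-fold that of si-Control, from 4.83 ± 0.149 FPKM in si-Control and 2.56 ± 0.619 FPKM in si-*Fndc1* (mean ± SD, n = 5 libraries each). The fall passed the test (log2 fold change -0.91, SE 0.14, edgeR adjusted p = 0.000618) and passed it with the offset, at -0.58 (adjusted p = 0.0112). It was called in 18 of 18 alternative settings. The GC content of *Zfp469* came from a transcript of 3078 bases, shorter than its counts and FPKM imply, so its offset value is uncertain to that extent.

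*Zfp526* was measured at 3.50, 3.59, 3.31, 3.36 and 3.01 FPKM in si-Control replicates 1 to 5 and at 2.33, 1.78, 2.19, 2.40 and 2.40 FPKM in si-*Fndc1* replicates 1 to 5. The groups did not overlap, and the fall (log2 fold change -0.59, SE 0.090, edgeR adjusted p = 0.000604) held with the offset, at -0.43 (adjusted p = 0.00652). *Zfp628* was measured at 4.86, 4.70, 5.37, 6.22 and 5.36 FPKM in si-Control replicates 1 to 5 and at 3.53, 4.49, 3.60, 3.71 and 3.67 FPKM in si-*Fndc1* replicates 1 to 5, and although si-*Fndc1* replicate 2 was higher than the other 4 of its group, it stayed below every si-Control library. Its fall (log2 fold change -0.47, SE 0.091, edgeR adjusted p = 0.00244) became -0.20 (adjusted p = 0.127) with the offset, so that call was lost. *Zfp516*, which drives the thermogenic gene *Ucp1* in brown fat, was among the 5 most abundant Zfp genes and was measured at 9.72, 9.27, 10.2, 10.5 and 9.99 FPKM in si-Control replicates 1 to 5 and at 8.43, 8.68, 7.80, 7.67 and 7.62 FPKM in si-*Fndc1* replicates 1 to 5. Its groups did not overlap, and its fall (log2 fold change -0.30, SE 0.047, edgeR adjusted p = 0.000809) held with the offset at -0.14 (adjusted p = 0.0114). The call of *Zfp516* was lost with the offset and the replicate block (edgeR adjusted p = 0.0641).

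The other falls were less stable. *Zfp358* was measured at 8.90, 10.5, 11.2, 11.4 and 11.6 FPKM in si-Control replicates 1 to 5 and at 9.76, 9.01, 9.45, 8.29 and 8.66 FPKM in si-*Fndc1* replicates 1 to 5, so that si-Control replicate 1 lay within the si-*Fndc1* range. Its call (log2 fold change -0.24, SE 0.077, edgeR adjusted p = 0.0345) was lost without si-Control replicate 3, 4 or 5 or si-*Fndc1* replicate 2, 4 or 5 (adjusted p 0.0560 to 0.0832) and with the offset, at -0.082 (adjusted p = 0.475). *Zfp319* had 4.95 to 5.78 FPKM in si-Control and 4.37 to 5.25 FPKM in si-*Fndc1* (log2 fold change -0.18, SE 0.058, edgeR adjusted p = 0.0322). This call was kept without si-Control replicate 2 or si-*Fndc1* replicate 2 and lost in the other 8 such fits (adjusted p 0.0529 to 0.0780), and the log2 fold change of *Zfp319* changed sign with the offset, to 0.095 (adjusted p = 0.137).

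Among the abundant genes of this kind that did not pass were *Zfp281*, *Zfp623* and *Zfp292*. *Zfp281*, a factor that controls pluripotency genes in embryonic stem cells, was measured at 8.79, 7.34, 9.23, 9.90 and 9.50 FPKM in si-Control replicates 1 to 5 and at 10.3, 9.33, 9.24, 8.88 and 9.44 FPKM in si-*Fndc1* replicates 1 to 5, and the groups overlapped over most of their range (log2 fold change 0.084, SE 0.074, edgeR adjusted p = 0.417). *Zfp623* had 6.79 ± 0.554 FPKM in si-Control and 7.23 ± 0.429 FPKM in si-*Fndc1* (mean ± SD, n = 5 libraries each), with a log2 fold change of 0.098. *Zfp292*, known as a growth hormone gene activator of the pituitary, had 6.20 ± 0.356 FPKM in si-Control and 6.41 ± 0.394 FPKM in si-*Fndc1* (mean ± SD, n = 5 libraries each), with a log2 fold change of 0.056.

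The remaining 4 Zfp proteins with a sequence, *Zfp503*, *Zfp830*, *Zfp36* and *Zfp428*, had fewer than 3 C2H2 fingers, and 0 of them was called. *Zfp503*, also called Nolz1, a repressor of the NET family, had the highest level of all 45 and was measured at 13.7, 14.7, 13.9, 13.3 and 12.4 FPKM in si-Control replicates 1 to 5 and at 11.7, 11.9, 12.6, 13.1 and 12.6 FPKM in si-*Fndc1* replicates 1 to 5. Its si-*Fndc1* libraries tended to the lower end of the si-Control range but overlapped with it, and the difference missed the threshold (log2 fold change -0.13, SE 0.051, edgeR adjusted p = 0.0709). It passed in the fit without si-Control replicate 5 (log2 fold change -0.16, adjusted p = 0.0309), whereas the other 9 such fits gave an adjusted p of up to 0.148. *Zfp830*, a nuclear protein of pre-mRNA splicing, was measured at 11.6, 12.7, 11.2, 12.6 and 12.4 FPKM in si-Control replicates 1 to 5 and at 13.1, 11.0, 10.3, 11.5 and 12.2 FPKM in si-*Fndc1* replicates 1 to 5, with overlapping groups (log2 fold change -0.051, SE 0.068, edgeR adjusted p = 0.602). With the GC and length offset *Zfp830* was called lower, at -0.38 (adjusted p = 0.00503). Its GC content of 43.7% came from a GENCODE M1 transcript of 3278 bases, longer than the gene as listed (chr11:82655171-82656761). Its coding sequence had 53.8% GC. The offset value of *Zfp830* is uncertain to that extent.

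*Zfp36* is tristetraprolin, which binds AU-rich elements through a pair of CCCH fingers and speeds the decay of mRNA. It was measured at 5.28, 4.97, 5.12, 4.60 and 4.53 FPKM in si-Control replicates 1 to 5 and at 3.71, 4.15, 4.68, 4.59 and 4.30 FPKM in si-*Fndc1* replicates 1 to 5. Most si-*Fndc1* libraries were lower, but 2 of them lay within the si-Control range, and the difference did not pass (log2 fold change -0.18, SE 0.076, edgeR adjusted p = 0.0844). *Zfp428* varied the most between libraries within the 4, from 3.60 to 7.17 FPKM, and had a log2 fold change of 0.11 with an SE of 0.18.

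For *Zfp960*, *Zfp994* and *Zfp969* the GENCODE M1 set gave no coding transcript, so they have neither a class nor a GC content here. *Zfp960* was measured at 2.60, 2.84, 2.88, 3.34 and 2.75 FPKM in si-Control replicates 1 to 5 and at 3.65, 3.87, 3.70, 3.88 and 4.00 FPKM in si-*Fndc1* replicates 1 to 5, without overlap (log2 fold change 0.41, SE 0.073, edgeR adjusted p = 0.00139). *Zfp994*, a gene of the chromosome 17 stretch, was measured at 1.95, 1.92, 1.64, 1.77 and 1.51 FPKM in si-Control replicates 1 to 5 and at 2.23, 2.08, 2.17, 2.17 and 2.80 FPKM in si-*Fndc1* replicates 1 to 5, also without overlap (log2 fold change 0.39, SE 0.099, edgeR adjusted p = 0.0113). Every si-Control library of *Zfp994* was below the level of the rule, so the choice of genes favours this direction. *Zfp969* ranged from 2.02 to 4.63 FPKM among the si-Control libraries alone and did not pass (log2 fold change 0.023, SE 0.26, edgeR adjusted p = 0.956).

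GC content, which the choice of the genes did not use, separated the risers from the genes that fell. The 11 risers with a known GC content had 34.4% to 43.9% (median 39.2%), the 6 genes that fell had 53.8% to 63.5% (median 58.6%), and the 25 others had a median of 45.5%. The ranges of the risers and of the genes that fell did not meet. Over the 42 Zfp genes the log2 fold change and the GC content had a Pearson r of -0.713 and a Spearman rho of -0.780, given as a description, since the genes share their libraries. Over all 11185 tested genes with a GC content, Spearman's rho was -0.525. With the offset, rho was 0.015 over the Zfp genes and -0.006 over all genes, as the offset is built to do.

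Set beside other genes of the same GC content, the Zfp genes differed less. All genes with a GC content were cut into 5 bins of 2237 genes each. In the lowest bin, up to 44.8%, 11 of 23 Zfp genes rose and 0 fell (47.8% and 0%), while 41.1% of all genes in that bin rose and 1.70% fell. In the highest bin, from 56.3%, 0 of 13 Zfp genes rose and 5 fell (0% and 38.5%), while 3.49% of all genes there rose and 43.4% fell. The 3 bins between held 6 Zfp genes, of which 1 fell.

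**Figure D4:**
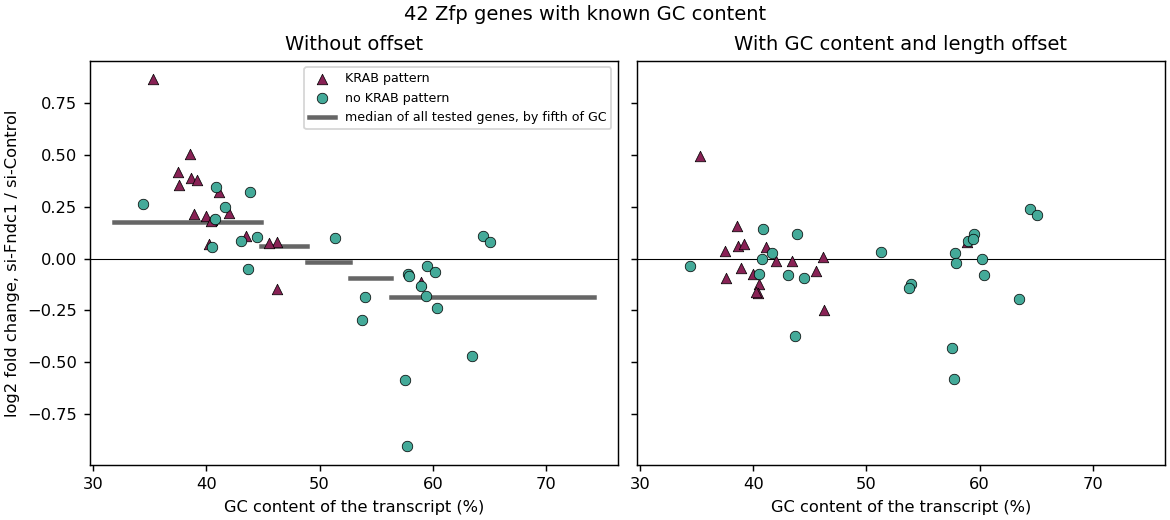
Each point is 1 of the 42 Zfp genes with a known GC content (horizontal axis, percent of the transcript) and its log2 fold change (vertical axis), with triangles for a KRAB pattern and grey lines for the median of all tested genes in each bin of GC content. Without the offset (left) the values fall with GC content (rho -0.780), and with the GC and length offset (right) the trend is gone (rho 0.015) while *Zfp758*, *Zfp469* and *Zfp526* remain away from 0.

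The trend with GC content could be followed library by library. Within each library, the slope of log2 CPM on GC content, relative to the mean of all libraries, was 0.084 to 0.12 per 10 points of GC in the 5 si-Control libraries and -0.13 to -0.075 in the 5 si-*Fndc1* libraries, steepest in si-*Fndc1* replicate 5. The groups did not overlap in this slope, so a difference in library preparation and an effect of the knockdown cannot be told apart here. With the offset, 22.8% of the 11185 genes were called, 11.2% higher and 11.6% lower, and 7 of 42 Zfp genes were called, 4.76% higher and 11.9% lower. *Zfp758* and *Zfp655* were higher, *Zfp469*, *Zfp526*, *Zfp516*, *Zfp830* and *Zfp84* were lower, and 5 of these 7 were also called without the offset. For *Zfp830* and *Zfp469* the GC content came from a transcript that differs in length from the one counted. The transcripts used for *Zfp53*, *Zfp958*, *Zfp825*, *Zfp267* and *Zfp971* held the coding sequence alone, so the offset values of these genes are uncertain too.

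Summarized per library, the median deviation of the Zfp genes from their mean log2 CPM lay between -0.087 and -0.034 for si-Control and between -0.0030 and 0.099 for si-*Fndc1*, without overlap. For the 18 KRAB genes it lay between -0.17 and 0.0057 for si-Control and between 0.0052 and 0.22 for si-*Fndc1*, so that si-Control replicate 2 and si-*Fndc1* replicate 2 met. The same median over all genes was 0.0037 to 0.0090 in every library.

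**Figure D5:**
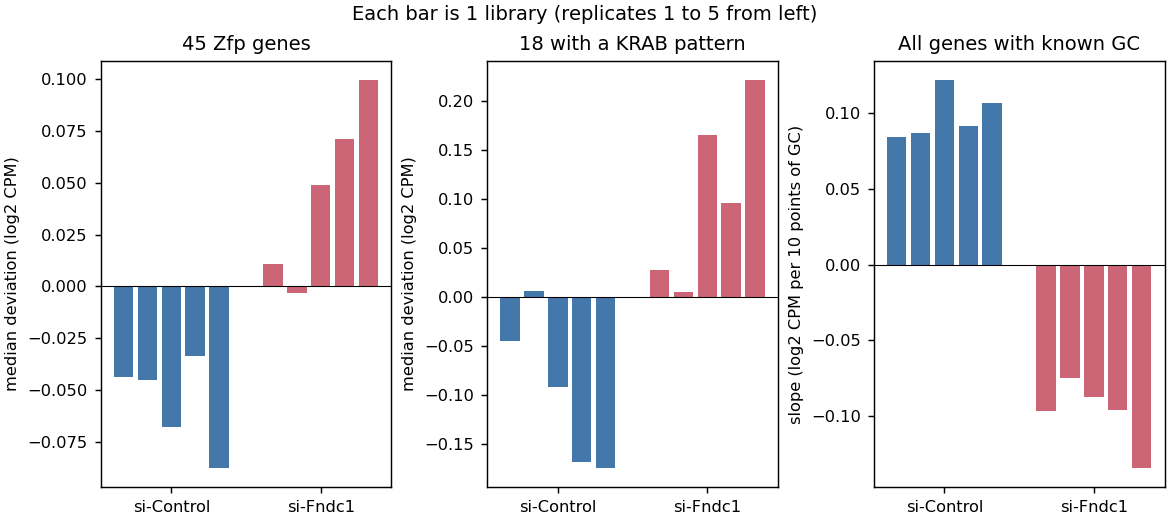
Each bar is 1 library, in log2 CPM: the median deviation of the 45 Zfp genes (left), that of the 18 with a KRAB pattern (middle), and the slope on GC content over all genes with a known GC content, per 10 points (right). The si-Control libraries lie below the si-*Fndc1* libraries in the left panel, and all 5 slopes are positive in si-Control and negative in si-*Fndc1*.

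Other zinc finger families at the same level of 2 FPKM did not all show the same split. Of 13 tested Zfp genes with letters in place of a number, 5 rose and 1 fell (2 and 1 of the 11 with a known GC content with the offset), and of 36 KRAB genes outside the 45, 13 rose and 1 fell, with a median log2 fold change of 0.21. These KRAB genes had a median GC content of 41.6%, and with the offset 5 were called higher and 3 lower. Of 33 ZBTB and SCAN genes, with a median GC content of 50.3%, 2 rose and 6 fell (0 and 2 with the offset). Of 17 KLF, SP and EGR genes, 2 rose and 5 fell (1 and 2 with the offset), and of 12 CCCH-type genes, 1 rose and 5 fell (0 and 2 of the 11 with a known GC content with the offset). Of 147 C2H2 genes without a KRAB pattern, 18 rose and 38 fell, or 16 and 18 with the offset. The 98 numbered Zfp genes with several transcript types had 23 that rose and 18 that fell, with a median log2 fold change of 0.010, and with the offset 18 were called higher and 8 lower among the 95 with a known GC content. Beside these counts, 20.3% of the 10108 tested genes at 2 FPKM or more rose and 20.7% fell. With the offset, 1134 were called higher and 1225 lower among the 9045 of them with a known GC content. These lists share genes, and no difference between them was tested.

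The proteins through which KRAB factors act did not share a direction. Of 33 tested corepressor genes, 7 rose and 9 fell (4 and 7 with the offset), with a median log2 fold change of -0.072. Beside these counts, 17.3% of all genes tested rose and 17.2% fell (11.2% and 11.6% with the offset), and no difference from that share was tested. *Trim28* had 21.8 ± 0.422 FPKM in si-Control and 20.1 ± 1.68 FPKM in si-*Fndc1* (log2 fold change -0.11, edgeR adjusted p = 0.150, and 0.12, adjusted p = 0.106, with the GC and length offset), and *Setdb1* had 6.94 ± 0.554 FPKM in si-Control and 6.42 ± 0.317 FPKM in si-*Fndc1* (log2 fold change -0.10, edgeR adjusted p = 0.214, and -0.075, adjusted p = 0.367, with the GC and length offset). The 3 genes with the smallest p-values were subunits of histone deacetylase complexes. *Chd3*, a chromatin-remodelling helicase, fell from 65.6 to 51.2 FPKM (log2 fold change -0.35, edgeR adjusted p = 1.55e-05, and -0.13, adjusted p = 0.00700, with the GC and length offset). *Rbbp7* and *Rbbp4*, which bind histones, rose from 26.6 to 37.3 FPKM (log2 fold change 0.49, edgeR adjusted p = 4.55e-05, and 0.30, adjusted p = 0.00167, with the GC and length offset) and from 27.2 to 32.1 FPKM (log2 fold change 0.25, edgeR adjusted p = 0.000111, and 0.24, adjusted p = 0.000224, with the GC and length offset).

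Sequence shared with other genes limits a few of these values. Of the Zfp genes with a transcript, 8 held windows of 75 bases that occur in another gene. The share was 20.2% for *Zfp971*, 11.0% for *Zfp866*, 4.28% for *Zfp944*, which shares them mostly with *Zfp942*, and 1.53% for *Zfp758*, which shares them mostly with *Zfp943*. How reads in such windows were counted is not stated, and these 4 values are uncertain to that extent. *Zfp866* and *Zfp524* overlap *Atp13a1* (6.75 FPKM) and *Fiz1* (4.16 FPKM) on the opposite strand, and *Zfp36* overlaps *Gm44710* (1.12 FPKM). Whether the counting used strand is not stated, so reads of these partners cannot be told apart.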

How the data were processed

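RNA-seq libraries of C2C12 cells were analysed, 5 of si-Control and 5 of si-*Fndc1*, grouped by their labels. The authors counted reads per gene and deposited the counts without normalization, together with FPKM values that the authors computed and list as 0.0001 where no read was counted. The methods give TopHat, mm10 and htseq-count, the series text gives STAR and mm9, and the processing notes list GRCm39, cutadapt 1.9 and FastQC. These sources also differ in the time point, and the 4 days used here are those of the methods. The methods speak of fewer libraries than the 10 used. The labels give no batch.

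All 13548 genes whose mean reached 0.5 FPKM were tested on counts with edgeR 4.0.16 (quasi-likelihood, TMM) in R 4.3.3, with Benjamini-Hochberg adjustment over all of them and calls at an adjusted p under 0.05. DESeq2 1.42.0, limma 3.58.1 on log2(FPKM + 1) and log2(FPKM + 0.1), other filters, a replicate block, leaving out each library, and an offset for GC content and transcript length were alternatives. The offset was fitted within each library by robust regression (MASS 7.3.60.0.1) on splines of 5 degrees of freedom, with 0.5 added to counts. It used the GC content of the GENCODE M1 transcript and the length implied by the counts and FPKM, which can belong to different transcripts. Spread between libraries exceeded counting error in all 20 within-group pairs (chi-square per degree of freedom at least 35.8). The fits were tested on simulated data. Same-numbered libraries did not deviate together (correlation -0.051 to 0.065, and 1 of 5 si-Control libraries correlated best with its own number), so the numbers were not used as pairs.

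Genes were named by rule: the 10 most abundant, up to 8 rises and 8 falls that passed the test with no overlap of CPM, those on lists of RNA-binding and known factors that were called, *Zfp36* and *Zfp281*, those next to the level threshold, *Trim28*, *Setdb1* and the 3 corepressor genes with the smallest p. *Zfp106*, *Zfp148*, *Zfp57*, *Zfp809* and *Zfp445*, also on that rule, have several transcript types, and *Zfp423* has no count. Zfp genes outside this rule were named after their values were seen. The members and lists were chosen with earlier results of these data known. C2H2 fingers (C, 2 to 4 residues, C, 12, H, 3 to 5, H) and KRAB patterns were searched in proteins translated from the longest coding sequence of GENCODE M1 (NCBIM37), in place of the RefSeq proteins first planned, for 42 genes matched by identifier. Promoters came from RefSeq (GRCm38.p6), for 34 genes matched by symbol. No sequence from chromosome 18 was considered for printing. Python 3.11.15, numpy 2.4.6, pandas 2.3.3 and matplotlib 3.10.9 were used.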

Additional observations from a re-analysis of the deposited data

Results flagged for a closer look

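In 4 of the 54 groups of 5 libraries examined, the named genes' values included 1 library that stood apart from the other 4 (a gap of over 0.71 of the range), where chance gives about 1 group in 20. *Zfp758* was at 3.30 FPKM in si-Control replicate 2, beside 2.23 to 2.29 FPKM in the other 4. *Zfp628* was at 4.49 FPKM in si-*Fndc1* replicate 2, beside 3.53 to 3.71 FPKM. In si-*Fndc1* replicate 5, the library with the fewest counts and the steepest slope on GC content, *Zfp24* was at 7.10 FPKM, beside 6.47 to 6.59 FPKM, and *Zfp994* was at 2.80 FPKM, beside 2.08 to 2.23 FPKM. Each of these 4 genes was called in the same direction in all 10 fits without 1 library. The causes were not tested.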

How the results depend on the processing

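The 19 calls among the Zfp genes (13 higher, 6 lower) numbered 19 with DESeq2 and with its size factors in edgeR, 18 with limma at either pseudocount, 16 without a filter, and 15 to 18 without 1 library, where 15 of the 19 genes kept their call in every fit and the median log2 fold change was 0.080 to 0.12. When genes under 5 FPKM were left out of the fit, 8 of the 12 Zfp genes that remained were called. When the level of the rule was set at 5 FPKM, 7 of 12 were called. At a level of 1 FPKM, 18 of 72 were higher and 6 lower. The share of all genes called at these levels is not given here, so these counts are not a result about the Zfp genes. With the GC and length offset 7 were called (2 higher, 5 lower) and the median was -0.012. With the offset and the replicate block 4 were called (1 higher, 3 lower) and the median was -0.0056. These 4 were *Zfp758*, *Zfp469*, *Zfp526* and *Zfp830*, so *Zfp655*, *Zfp516* and *Zfp84* lost the call they had with the offset alone. The genes that entered these fits gave 11 higher and 6 lower without an offset, a setting added after seeing the data. With any transcript type allowed, also added after seeing the data, 60 of 143 were called (36 higher, 24 lower), with a median of 0.056. The replicate block alone left 13 calls (9 higher, 4 lower). Corepressor calls, 16 in the report, were 14 to 19 without 1 library and 8 with the offset and block, where 3 were higher and 5 lower.

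For 22 named Zfp genes, 379 of 423 alternative values stayed on the same side of the threshold and in the same direction, 34 lost their call, 20 of them with the offset, and 4 gained one. The sign changed in 10, all with the offset: for *Zfp52* (-0.075, or -0.073 with the block) and *Zfp24* (-0.0018, or -0.00083 with the block), which lost their call, and for *Zfp503* (0.085, or 0.086 with the block), *Zfp281* (-0.079, or -0.073 with the block) and *Zfp292* (-0.077, or -0.077 with the block), which were not called in either fit. The cause was not tested. Precision is limited by counts of 207 to 6985 per library and by the spread between 5 libraries a group.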
